A study of Homo sapiens with 6 samples.

Results

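Cytosolic ribosomal proteins are the protein components of the ribosome that translates messenger RNA in the cytoplasm. Their genes were taken by symbol from the deposited count table: RPSA, RPLP0, RPLP1, RPLP2, and RPL or RPS followed by digits, with or without a paralogue suffix. Pseudogenes and the RPS6 kinases were left out. RPS6 and RPS16 were left out as well, because they lie in 2 chromosome blocks that had already been seen to differ in these data. This gave 85 genes of the 60623 rows kept, with 53 genes of the large (60S) subunit and 32 of the small (40S) subunit. Of the 85, 10 carry a suffix that marks a paralogue, such as RPL39L.

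The libraries come from cells labelled as PANC-1, an established line derived from a human pancreatic ductal carcinoma and grown in DMEM with fetal bovine serum. In 3 of the libraries (shSTN1) a short hairpin RNA was directed at STN1, and 3 are controls, whose columns are named scramble. STN1 belongs to the telomeric CST complex. The titles call the libraries biological replicates, but the labels do not state the hairpin sequence, the number of clones or whether the cultures were separate. The p-values below therefore measure only the spread among these 6 libraries, part of which may be technical.

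The targeted gene did not separate the groups. STN1 had 14.8, 14.0 and 15.6 CPM (counts relative to the TMM-scaled library total) in the shSTN1 libraries, against 18.6, 15.5 and 15.1 CPM in the control libraries. The log2 fold change was -0.15, its limma-voom interval ran from -0.38 to 0.09, and edgeR gave an adjusted p = 0.253. The genotype label of 2 shSTN1 libraries names STN2 and STN3 in place of STN1. The groups are therefore named by their labels, and each direction below is that of the libraries labelled shSTN1 relative to those labelled control. Summed over 11 markers of pancreatic carcinoma and ductal epithelium, the level was 5818 to 5994 CPM in shSTN1 and 1003 to 1043 CPM in control, with 8 and 7 markers at 1 CPM or more. Over 8 markers of an embryonic kidney line the sum was 85.2 to 89.0 CPM in shSTN1 and 711 to 814 CPM in control, and 4 and 8 of them reached 1 CPM. SALL1, one of these, had no reads in shSTN1. The sum over 5 leukocyte markers was 25.9 to 28.8 CPM in shSTN1 and 12.8 to 15.7 CPM in control, with 2 of 5 at 1 CPM or more in each group. Over 4 endothelial markers it was 1.87 to 2.44 CPM in shSTN1 and 1.14 to 2.19 CPM in control (1 of 4 in each), and over 5 fibroblast markers 145 to 161 CPM in shSTN1 and 63.7 to 77.6 CPM in control (2 of 5 in each). PECAM1 had no reads in either group, DCN none in shSTN1, and PTPRC and CD52 none in control. The part of these marker differences in the results below was not tested. Counted reads ran from 18813591 to 23336942 per shSTN1 library and from 17357223 to 20660453 per control library.

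A ribosome holds a single copy of nearly every one of these proteins, so cells make them in matched amounts. The large subunit forms peptide bonds and contains the exit tunnel, and the small subunit decodes the messenger RNA. Most ribosomal protein messenger RNAs begin with a C followed by a run of pyrimidines, the 5′ terminal oligopyrimidine (5′ TOP) motif, through which the kinase mTOR and the RNA-binding protein LARP1 regulate their translation. Much of their control is thus translational, a step that RNA counts do not measure.

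The start sites below show this shared feature in some members at both ends of the range of change. Each window holds 10 bases before and 20 bases from the RefSeq transcription start (build GRCh38.p14), 5′ to 3′ on the strand of the gene, and capitals mark a run that begins with C at the start and continues with at least 4 pyrimidines. The first 6 belong to raised genes and the rest to lowered genes. RPL39, printed last, had the longest run of all members searched.
RPLP2 (chr11:809957-809986, plus strand): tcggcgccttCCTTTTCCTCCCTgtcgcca
RPS12 (chr6:132814559-132814588, plus strand): cggatgaggcCTCTTTCCCTgccgccgccg
RPS21 (chr20:62387093-62387122, plus strand): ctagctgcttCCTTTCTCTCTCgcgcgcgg
RPL35A (chr3:197950180-197950209, plus strand): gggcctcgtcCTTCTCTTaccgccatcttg
RPL17 (chr18:49492446-49492475, minus strand): ttccctaagcagcctgaggtgagtgtttct
RPL28 (chr19:55385922-55385951, plus strand): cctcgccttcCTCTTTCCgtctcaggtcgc
RPL13 (chr16:89560672-89560701, plus strand): gggccgcttcCTTTCCgctcggctgttttc
RPL14 (chr3:40457329-40457358, plus strand): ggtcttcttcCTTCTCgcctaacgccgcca
RPL9 (chr4:39458903-39458932, minus strand): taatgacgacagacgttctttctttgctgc
RPL3 (chr22:39319604-39319633, minus strand): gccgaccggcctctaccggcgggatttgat
RPS4X (chrX:72277229-72277258, minus strand): ctccagccccaatttctacgcgcaccggaa
RPL39 (chrX:119791611-119791640, minus strand): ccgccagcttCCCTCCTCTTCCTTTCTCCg

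A RefSeq start was given for 68 of the 85 members, and 46 of these 68 (67.6%) held such a run, of 5 to 19 bases with a median of 8. Among all 27305 genes in the RefSeq table the share was 5.14%, and among 10990 other tested protein-coding genes it was 6.86%. The run was present at 10 of 12 starts of raised members, 22 of 36 of lowered members, 13 of 17 of members that did not pass the threshold and 1 of 3 of members not tested. It thus stood at starts of genes in all 3 classes. The windows of RPL17, RPL9, RPL3 and RPS4X hold no run at the listed start, which speaks only of these letters at these positions, since 11 members have several RefSeq starts. In the 250 bases before to 50 bases after the start, searched on both strands, the ETS family core CCGGAAG occurred in 33.8% of members, 12.2% of all genes and 20.9% of the other tested protein-coding genes. The YY1 core AAGATGGC occurred in 10.3% of members, 3.52% of all genes and 6.01% of the other tested protein-coding genes. The SP1 box GGGCGG was found in 55.9% of members, which is above the 48.3% of all genes and below the 77.6% of the other tested protein-coding genes. TATAAA was found in 10.3% of members, below the 14.0% of all genes and above the 8.49% of the other tested protein-coding genes. No overlap between these motifs was removed.

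Ribosomal protein transcripts were lower in the shSTN1 libraries more often than higher, and most changes were small. Of the 82 members tested, 46 fell, 15 rose and 21 did not pass an adjusted p of 0.05 in edgeR's quasi-likelihood test over 17451 genes. The 61 members called are 74.4% of those tested, beside 74.1% of all genes tested, so the share called was close to that over all genes. Among 2155 other protein-coding genes at a mean of 100 CPM or more, 84.4% were called, 1092 higher and 727 lower. Their median log2 fold change was 0.16. Lowered members made up 56.1% of the 82, beside 38.5% of all genes, and raised members 18.3%, beside 35.6%. The groups did not overlap for 50 members (61.0%), beside 75.6% of all genes tested. The median log2 fold change was -0.24 over the members and -0.03 over all genes tested. Of the 61 called, 33 differed by less than 1.5-fold, 7 were lowered at least 2-fold and 1 was raised at least 2-fold, whereas 34.6% of all genes were called with a change of 2-fold or more. The 3 members under the low-count filter were RPL10L, RPS4Y1 and RPS4Y2. In bulk libraries, fewer cells of a type and less RNA per cell cannot be told apart.

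The large subunit held most of the lowered genes. Of its 52 tested members, 33 fell, 9 rose and 10 did not pass, with a median log2 fold change of -0.40. Of the 30 tested small-subunit members, 13 fell, 6 rose and 11 did not pass, with a median of 0.04, which ran from -0.05 to 0.08 when each library was left out and was below 0 without shSTN1 replicate 1, control replicate 1 or control replicate 2. Without the 9 members that share at least 50% of their coding bases with another annotated gene, a choice made after seeing the data, the medians were -0.51 for the large and -0.10 for the small subunit. The replicates also moved as a set within each group. Replicate 1 was the highest shSTN1 library for 68 of 82 members, and replicate 2 was the lowest control library for 69, and replicate 3 the highest for 57. Without control replicate 2 the median over all members was -0.34.

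**Figure D1:**
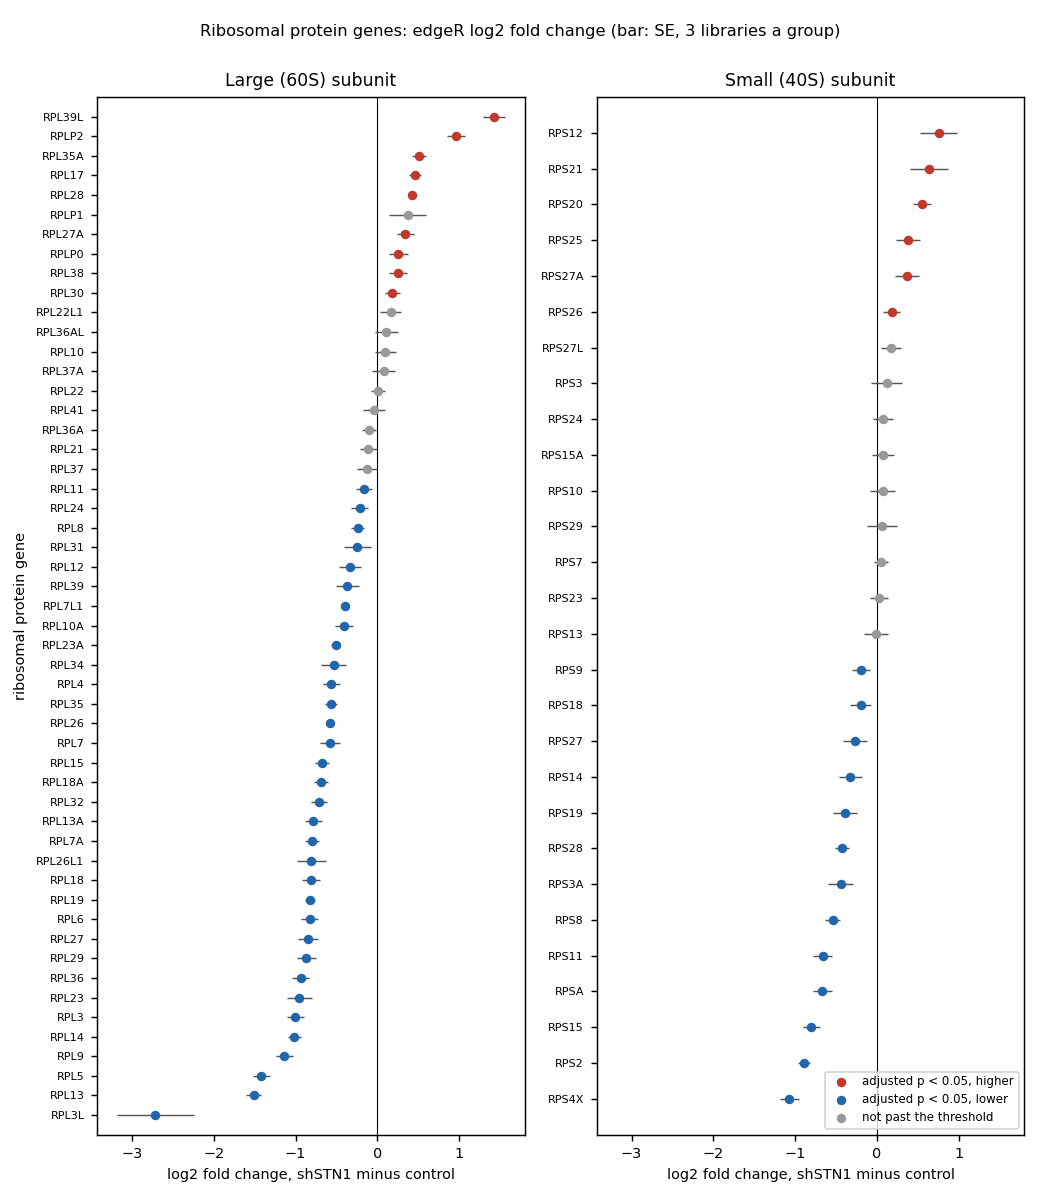
Log2 fold change (x axis, shSTN1 minus control, edgeR) of large-subunit and small-subunit members tested (y axis; some that did not pass are not drawn), with bars for the SE of the difference in mean log2 CPM over 3 libraries each. Red marks the 15 members that rose, blue the 46 that fell and grey members that did not pass the threshold; the values spread from RPL3L at -2.72 to RPL39L at 1.43.

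The members' summed reads were lower in every shSTN1 library than in any control library. Their share of all counted reads was 4.34%, 4.04% and 3.93% in shSTN1, against 6.29%, 5.60% and 6.59% in control. The means were 4.10% ± 0.211 in shSTN1 and 6.16% ± 0.506 in control (SD, n = 3 each), a ratio of 0.666. Shares are of raw totals, without the TMM factors that scale CPM. Those factors were 0.926 to 0.938 in shSTN1 and 1.06 to 1.08 in control, so on the CPM scale the fall is smaller. The large subunit contributed 2.55% in shSTN1 and 3.88% in control, and the small subunit 1.55% and 2.29%, so the 2 subunits' shares differed by similar ratios, 0.658 and 0.679. RPS2, a protein at the entry of the messenger RNA channel, accounted for 0.259% of reads in shSTN1 and 0.551% in control. The members left out by the rule went apart. RPS16 took 0.914% of reads in shSTN1 and 0.235% in control, and RPS6 0.0299% and 0.129%, with log2 fold changes of 2.16 and -1.91. With both added the share was 5.05% in shSTN1 and 6.53% in control. Reads of the mitochondrial genome made up 8.07% in shSTN1 and 5.23% in control. Of reads on nuclear protein-coding genes, the members held 4.55% in shSTN1 and 6.63% in control.

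**Figure D2:**
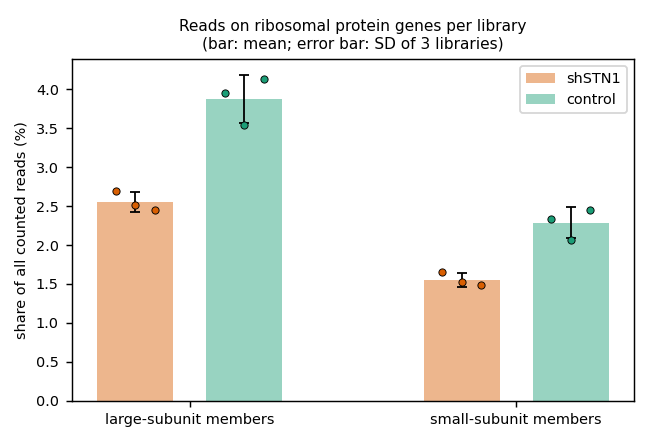
Share of all counted reads (y axis, %) on large-subunit and small-subunit members in shSTN1 (left bar of each pair) and control (right bar); points are the 3 libraries, bars their mean and error bars their SD. Every shSTN1 point lies below every control point for both subunits, with means of 2.55% and 3.88% for the large and 1.55% and 2.29% for the small subunit.

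RPL5 and RPL11 bind the 5S ribosomal RNA, and the particle they form can bind and inhibit MDM2 when ribosome assembly is disturbed. Both fell, by unequal amounts. RPL5 (chromosome 1, positions 92831983 to 92841924 in GRCh38) had 426, 430 and 418 CPM in shSTN1, against 1222, 978 and 1206 CPM in control. All 3 shSTN1 libraries lay far below the controls, with a log2 fold change of -1.42 (SE 0.105, edgeR adjusted p = 2.96e-18). RPL11 had 598, 561 and 546 CPM in shSTN1, against 670, 558 and 679 CPM in control, and the groups overlapped. Its log2 fold change of -0.16 (edgeR adjusted p = 0.035) did not pass without shSTN1 replicate 2 or 3 or without control replicate 1 or 3 (adjusted p = 0.099 to 0.173).

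The stalk of the large subunit, which recruits the translational GTPases, is built of RPLP0, RPLP1 and RPLP2 beside RPL12. RPLP2 (chromosome 11, positions 809647 to 812880) was the most raised member apart from paralogues, with 1467, 1208 and 1172 CPM in shSTN1, against 617, 668 and 686 CPM in control. Its groups were clearly apart, at a log2 fold change of 0.96 (SE 0.111, edgeR adjusted p = 1.03e-13). RPLP1, its partner in the stalk dimers, had 1023, 978 and 839 CPM in shSTN1, against 610, 629 and 962 CPM in control. Control replicate 3 lay within the shSTN1 range, and the log2 fold change of 0.37 did not pass (edgeR adjusted p = 0.144); without that library it was 0.60 (adjusted p = 2.53e-07). RPLP0, the anchor of the stalk, had 2097, 2024 and 1871 CPM in shSTN1, against 1657, 1467 and 1900 CPM in control. It rose slightly, by a log2 fold change of 0.25 (edgeR adjusted p = 0.00238), with groups that overlapped at their edges. RPL12, at the stalk base, had 826, 741 and 752 CPM in shSTN1, against 1136, 844 and 950 CPM in control, and fell (log2 fold change -0.34, edgeR adjusted p = 0.000201). The 4 stalk genes thus included 2 that rose, 1 that fell and 1 that did not pass.

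Near the peptidyl transferase centre, 3 of 4 members fell. RPL3, whose finger-like extension reaches the centre, had 1065, 1063 and 984 CPM in shSTN1, against 2204, 1807 and 2228 CPM in control. The groups were well apart, at a log2 fold change of -1.004 (SE 0.105, edgeR adjusted p = 2.28e-14). RPL4 (-0.56) and RPL8 (-0.24) fell less. RPL10, which joins the subunit late in its maturation, was at 0.10 and did not pass (edgeR adjusted p = 0.24). Around the exit of the tunnel, where nascent chains leave, 6 of 8 members fell, 1 rose and 1 did not pass. Both sets stand beside 33 lowered and 9 raised of the 52 large-subunit members tested, and 38.5% lowered of all genes tested. RPL23A, a docking site for factors at the exit, fell by 0.51 on the log2 scale and RPL19 by 0.82, whereas RPL17 rose (0.46) and RPL22 was at 0.01. RPL17 and RPL22 share 100% and 59.9% of their coding bases with other annotated genes. RPL26, which fell, shares 71.0%. The part of this overlap in their values was not tested.

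Other large-subunit members were among the most lowered. RPL13 (chromosome 16, positions 89560657 to 89566828) had 665, 625 and 618 CPM in shSTN1, against 1794, 1637 and 2016 CPM in control. It was the most lowered member apart from the paralogue RPL3L, at a log2 fold change of -1.51 (SE 0.0927, edgeR adjusted p = 2.73e-19). RPL9, a protein near the stalk base, had 354, 305 and 307 CPM in shSTN1, against 697, 649 and 783 CPM in control (log2 fold change -1.14). RPL14, a protein found in eukaryotes and archaea, had 281, 284 and 273 CPM in shSTN1, against 610, 508 and 579 CPM in control (-1.02). RPL23, like RPL5 and RPL11 a protein that can bind MDM2, had 372, 293 and 306 CPM in shSTN1, against 724, 553 and 603 CPM in control (-0.95). These 4 genes were named from the most lowered members called with groups that do not overlap, so their groups are apart by that choice. On the raised side, RPL35A, a gene mutated in Diamond-Blackfan anaemia, had 344, 300 and 295 CPM in shSTN1, against 219, 207 and 236 CPM in control (0.51). RPL28 had 789, 732 and 754 CPM in shSTN1, against 576, 553 and 571 CPM in control (0.42), and its replicates lay close together in both groups.

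**Figure D3:**
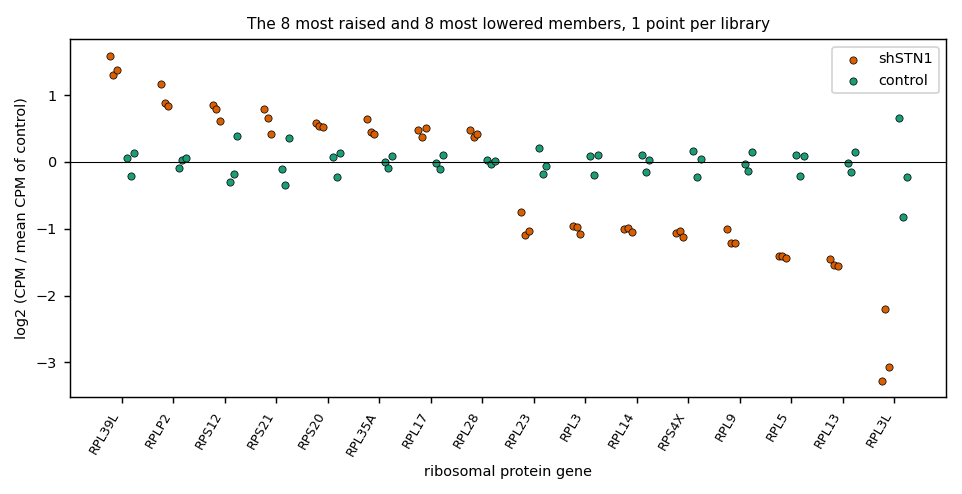
Level of each library relative to the mean of the control libraries (y axis, log2 of the CPM ratio) for the 8 members with the highest and the 8 with the lowest log2 fold change among those called with groups that do not overlap (x axis); orange points are shSTN1 and green points control. RPS12 and RPS21 each have 1 control library near the shSTN1 points, and RPL3L spreads over a wide range at 0.195 to 2.98 CPM.

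In the small subunit, of 7 proteins along the messenger RNA path, 4 fell, 1 rose and 2 did not pass, beside 56.1% lowered over all members tested. RPS2 had the highest level per kilobase of transcript of all members, at 4030 CPM per kilobase over both groups. It had 2950, 2684 and 2707 CPM in shSTN1, against 5557, 4744 and 5177 CPM in control, a log2 fold change of -0.89 (SE 0.079, edgeR adjusted p = 1.22e-13). RPS15, near the decoding site, had 671, 576 and 566 CPM in shSTN1, against 1080, 966 and 1111 CPM in control (-0.80). RPS3, at the channel entry, was at 0.12 and did not pass (edgeR adjusted p = 0.433). RPSA, which also serves as a laminin receptor, had 907, 847 and 814 CPM in shSTN1, against 1417, 1172 and 1497 CPM in control (-0.67, edgeR adjusted p = 6.3e-10). RPS4X, encoded on chromosome X, had 813, 829 and 776 CPM in shSTN1, against 1884, 1440 and 1749 CPM in control. It was the most lowered small-subunit member (log2 fold change -1.07, SE 0.119, edgeR adjusted p = 1.19e-14).

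The raised small-subunit genes were less evenly measured. RPS12, at the beak of the subunit, had 660, 635 and 560 CPM in shSTN1, against 296, 323 and 479 CPM in control, a log2 fold change of 0.76 (edgeR adjusted p = 0.0135). Its call was lost without shSTN1 replicate 1 (adjusted p = 0.0605), without control replicate 2 (adjusted p = 0.0822) and with no low-count filter (adjusted p = 0.0563). RPS21 had 156, 142 and 121 CPM in shSTN1, against 84.1, 71.3 and 116 CPM in control (0.63, edgeR adjusted p = 0.0231). It did not pass without shSTN1 replicate 1 or 2 or control replicate 1 (adjusted p = 0.0598 to 0.0806). In both genes control replicate 3 lay close to the shSTN1 libraries. RPS20 was tighter, with 595, 579 and 572 CPM in shSTN1, against 419, 341 and 435 CPM in control (0.55, edgeR adjusted p = 2.93e-08). RPS27A, which is made as a fusion with ubiquitin, had 537, 532 and 492 CPM in shSTN1, against 378, 349 and 485 CPM in control (0.37). Of 15 genes mutated in Diamond-Blackfan anaemia, an inherited failure of red cell production, 8 fell, 2 rose and 5 did not pass. Over all members tested, 56.1% fell and 18.3% rose, beside 38.5% and 35.6% of all genes tested.

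Some paralogues are expressed in other tissues than their base genes. RPL39L, described mainly in testis and in some tumours, was the most raised member, with 38.6, 31.5 and 33.3 CPM in shSTN1, against 13.3, 11.1 and 14.1 CPM in control (log2 fold change 1.43, SE 0.136, edgeR adjusted p = 2.97e-13). Its base gene RPL39 had 195, 170 and 164 CPM in shSTN1, against 234, 194 and 255 CPM in control (-0.37). Per transcript length, RPL39L made up 9.39% ± 0.388 of the pair in shSTN1 and 2.91% ± 0.0487 in control (SD, n = 3 each). All 3 shSTN1 libraries were above all controls, yet the exact two-sided permutation test cannot go below p = 0.1 with 3 libraries against 3, which is what it gave (adjusted p = 0.233 over 7 pairs). RPL3L, known from heart and skeletal muscle, had 0.195, 0.412 and 0.227 CPM in shSTN1, against 2.98, 1.07 and 1.63 CPM in control, and fell more than any other member (-2.72, SE 0.474). It made up 0.0177% of the RPL3 pair in shSTN1 and 0.0589% in control (exact permutation p = 0.1). RPS27L, a p53 target, was 0.438% of its pair in shSTN1 and 0.318% in control (exact permutation p = 0.1), and its fold change did not pass. These shares rest on a transcript length of 6434 bases for RPS27L, against 359 for RPS27. Without length scaling, RPS27L held 7.31% of the pair's reads in shSTN1 and 5.41% in control. RPL22L1 made up 23.5% in shSTN1 and 21.6% in control, RPL36AL 58.1% and 54.5%, RPL7L1 13.6% and 12.2%, and RPL26L1 48.4% and 52.3% of their pairs. The ranges of these 4 overlapped between groups, with exact permutation p of 0.3 to 0.5. For RPL7L1 the length used was 3769 bases, against 1101 for RPL7. Without length scaling, RPL7L1 held 35.0% of the pair's reads in shSTN1 and 32.2% in control. The base genes RPL36A, RPL26 and RPL22 share 94.3%, 71.0% and 59.9% of their coding bases with other annotated genes, and the part of this overlap in their pairs' shares was not tested. RPL26L1 (-0.81) and RPL7L1 (-0.40) fell along with RPL26 (-0.58) and RPL7 (-0.58).

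Some members overlap other annotated genes, and how reads in shared bases were counted is not known. RPL17 and RPS10 share at least 90% of their coding bases with the readthrough genes RPL17-C18orf32 and RPS10-NUDT3. Over the 4 members with at least 90% shared with another annotated gene, the median level was 64.3 CPM per kilobase, against 720 CPM per kilobase for the 66 core members with under 50% shared. Over the 9 members with at least 50% shared, 2 rose, 1 fell and 6 did not pass. Of the 73 tested members with less shared, 13 rose, 45 fell and 15 did not pass. Among all genes tested, 35.6% rose and 38.5% fell. RPL17 had 52.5, 49.0 and 53.6 CPM in shSTN1, against 37.4, 35.0 and 40.7 CPM in control, and its rise (0.46) is that of the reads counted on this row. Overlap did not always go with a low level: RPL30 and RPS15A, with 51.6% and 54.6% shared, stood at 652 and 441 CPM per kilobase. Levels per kilobase also depend on the transcript length used for each gene. RPS23, with 54.1% shared and a length of 3437 bases, stood at 67.6 CPM per kilobase. Its level was 234 CPM in shSTN1 and 231 CPM in control, beside 237 and 226 CPM for RPS15A. Pseudogenes of 75 members had 1132 rows, of which 503 held reads, and together they took 0.0732% of reads in shSTN1 and 0.112% in control. Adding them to their parent genes moved the log2 ratio of 2 members by more than 0.1. With them RPL13 stood at -1.18, since its pseudogenes, mainly RPL13P12, held 11035 reads in shSTN1 and 3009 in control, and RPS10 stood at 0.43.

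The tested members are spread over 21 chromosomes, and their changes partly followed those of the genes around them. Against the median log2 fold change of the 10 tested genes on each side, the members' log2 fold changes had a Spearman correlation of 0.48 and a Pearson correlation of 0.37 over 82 members, given as a description. Of the 61 called members, 45 were on the same side of 0 as their neighbours' median. No such count or correlation is given here for other tested genes, so these values do not set the members apart from them. On chromosome 11, 3 of 5 members rose and none fell, with a median of 0.34, and the other tested genes there also had a median of 0.34. Over all chromosomes, 35.6% of the genes tested rose and 38.5% fell. On chromosome 3, RPL32 (-0.72), RPL15 (-0.67), RPSA (-0.67), RPL14 (-1.02) and RPL29 (-0.87) lie between positions 12834485 and 51995942 and fell, whereas RPL39L and RPL35A lie from position 187120948 onward and rose. Between these, RPL24 fell by 0.22 on the log2 scale and RPL22L1 (0.16) did not pass. RPL5 lay among lowered genes, with a neighbours' median of -1.11, and RPLP2 among raised ones, at 0.82.

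Other members went apart from their surroundings. RPL9 (-1.14) lay among genes with a median of 1.35, RPL13 (-1.51) among genes at 0.12, and RPL23A (-0.51) among genes at 0.67. RPS12 (0.76) was raised among genes at -0.67, and RPS13, at -0.01 with 364, 341 and 332 CPM in shSTN1, against 322, 305 and 419 CPM in control, lay among genes at -2.22. On chromosome 19, 9 of 11 members fell and 1 rose, with a median of -0.66, whereas the other tested genes had a median of 0.09. Over all chromosomes, 38.5% of the genes tested fell and 35.6% rose. In all, 56 of 82 members were below their neighbours' median, and 54 lay within their neighbours' quartiles. The median difference over the 82 members was -0.26 on the log2 scale. Other tested genes are not counted here in the same way.

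**Figure D4:**
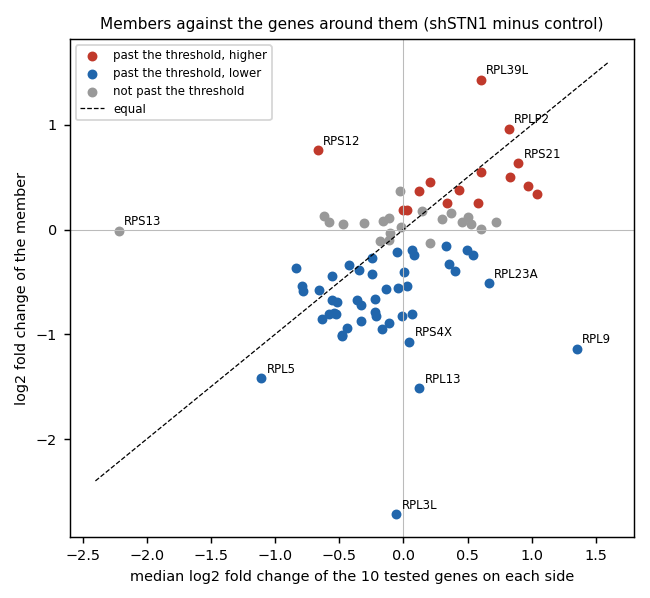
Log2 fold change of each of the 82 tested members (y axis) against the median log2 fold change of the 10 tested genes on each side of it (x axis), shSTN1 minus control; the dashed line marks equal values, and colours mark members that rose (red), fell (blue) or did not pass (grey). Most points lie below the line (56 of 82), and RPL9 and RPS13 lie farthest from it to either side apart from RPL3L.

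Log2 fold changes were lower in members with longer coding sequences. Across the 82 members the log2 fold change had a Spearman correlation of -0.50 with coding length, and of -0.45 over the 75 without paralogues. Among 13908 other protein-coding genes tested it was -0.09, and among 2155 with at least 100 CPM it was -0.10. These correlations are across genes of the same 6 libraries and are given as descriptions. Split into 3 sets of 25 core members by length, the shortest set (75 to 399 bases) held 9 members that rose, 7 that fell and 9 that did not pass, with a median of 0.07. In the middle set (405 to 564 bases) 4 rose, 16 fell and 5 did not pass, with a median of -0.33. In the longest set (576 to 1281 bases) only RPLP0 rose, 20 fell and 4 did not pass, with a median of -0.67. All 75 core members together held 14 that rose, 43 that fell and 18 that did not pass. Of all genes tested, 35.6% rose and 38.5% fell. Called shares of other genes in these length ranges are not given here. Other protein-coding genes with at least 100 CPM in the same length ranges had medians of 0.41, 0.28 and 0.20.

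**Figure D5:**
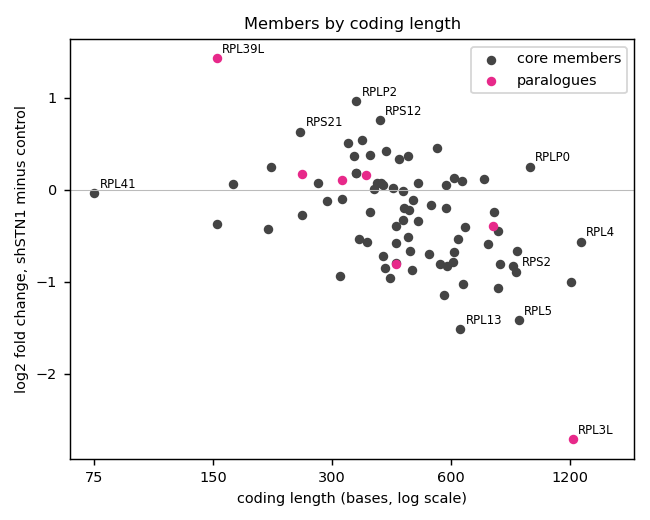
Log2 fold change (y axis, shSTN1 minus control) of the 82 tested members by coding length (x axis, bases, log scale), with core members in grey and paralogues in pink. Short members scatter around 0, and most members over 576 bases lie below it, with RPLP0 (0.25) as the exception among those called.

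Genes that work with the ribosomal proteins were also mixed. The counts below stand beside 38.5% lowered and 35.6% raised of all genes tested, with a median log2 fold change of -0.03. Of further ribosomal proteins outside the rule, FAU rose (0.30) and RACK1 fell (-0.64). Of 17 tested translation factors and other genes with a 5′ TOP motif, 10 fell and 5 rose, with a median of -0.28; EEF2, the elongation factor that drives translocation, had 2383, 2330 and 2360 CPM in shSTN1, against 4916, 4786 and 5060 CPM in control (-1.06). EIF3L fell too (-1.39), whereas VIM, an intermediate filament gene, rose (1.75). Of 33 ribosome assembly genes, 20 fell and 9 rose, with a median of -0.27; HEATR1 (-1.37) and GNL3 (-1.05) fell, and FBL, the methyltransferase of box C/D particles, rose (1.86). Of 15 genes for RNA polymerase I and III and their factors, 8 fell and 4 rose, with a median of -0.19, among them POLR3A (-0.85), POLR1D (-0.82) and RRN3 (0.82). Of 13 regulators, 7 fell and 3 rose, with a median of -0.53. MYC, which activates ribosomal protein genes, had 116, 108 and 113 CPM in shSTN1, against 284, 277 and 280 CPM in control (-1.32). EIF4EBP1, the translation repressor that mTOR phosphorylates, fell (-1.72), as did the MYC antagonist MXI1 (-1.23).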

How the data were processed

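RNA sequencing libraries of cells labelled PANC-1 were compared, 3 labelled shSTN1 with 3 labelled control, grouped by title. The file deposited by the authors holds unnormalized whole-number counts of reads per gene. The submitters' processing notes name cutadapt, FastQC, STAR 2.7.2b, featureCounts 2.0.1 and GRCh38; per the labels' protocols, RNA came from Trizol and libraries from the NEBNext Ultra kit. Not given in the sources used here were the annotation release, strand setting and treatment of reads that map to several genes, so members with near-identical copies or overlapping genes are uncertain. Of 60668 rows, 45 second copies of pseudoautosomal genes were left out. Coordinates, coding lengths and overlaps came from GENCODE 29, which held 58516 of the 60623 rows.

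The counts were fitted with edgeR 4.0.16 (R 4.3.3; filterByExpr, TMM factors, robust quasi-likelihood test, no covariates), with Benjamini-Hochberg adjustment over 17451 genes and a threshold of 0.05. Levels are TMM-scaled CPM. Each SE is that of the difference in mean log2 CPM (prior count 2). The voom interval came from limma 3.58.1. The edgeR, limma-voom and DESeq2 fits were tested on simulated counts with known fold changes. Named members were the 8 highest and 8 lowest called with groups that do not overlap, the 4 with the highest level per kilobase, paralogue pairs, stalk and 5S members, RPSA and those under the filter, plus up to 3 genes per other list by adjusted p; RPL4, RPL19, RPL23A, RPS3, RPS13, RPS27A and the chromosome 3 members were named after their values were seen. The members and lists were chosen with earlier results of these data known. GNB2L1, an older symbol, was not matched. Some genes counted in the totals are not reported here by name. Within a group, libraries varied beyond sampling noise, at 3.02 to 8.89 chi-square units per degree of freedom, and none were merged. Alternatives were other scaling factors and filters, DESeq2 1.42.0, limma-voom, a replicate block, an adjusted p under 0.01, other member and neighbour rules, and leaving out each library. Figures were drawn with matplotlib 3.10.9.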

Additional observations from a re-analysis of the deposited data

How the results depend on the processing

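With RLE, upper-quartile or member-free TMM factors, other filters, DESeq2, limma-voom, and leaving out each library, no called member changed direction, and the members past the threshold numbered 11 to 19 higher and 42 to 48 lower. An adjusted p under 0.01 left 11 higher and 42 lower. Leaving out each library, the median log2 fold change ran from -0.34 to -0.21 over the members, from -0.50 to -0.37 over the large subunit and from -0.05 to 0.08 over the small subunit, below 0 without shSTN1 replicate 1, control replicate 1 or control replicate 2. The median difference from the neighbours ran from -0.32 to -0.19, with the highest value without control replicate 3, and the share of reads from 3.99% to 4.19% in shSTN1 and from 5.95% to 6.44% in control. Without the 9 members that share their coding bases, an alternative added after seeing the data, the medians were -0.34, -0.51 and -0.10. The shSTN1 share was 5.05% with RPS6 and RPS16 added and 4.55% of reads on nuclear protein-coding genes. RPL22, which was not called, turned to -0.026 with upper-quartile factors and to -0.022 with no low-count filter, and ran from -0.065 to 0.049 when each library was left out (below 0 without shSTN1 replicate 3 or control replicate 2). RPL10, not called either, ran from -0.0025 without control replicate 2 to 0.21 without control replicate 3. The cause was not tested. RPL30 and RPS26 lost their calls with upper-quartile factors and without shSTN1 replicate 1 or control replicate 2, and RPS26 also with no filter and without control replicate 3. RPS9, RPS18 and RPL31 lost theirs without shSTN1 replicate 2 or 3 or control replicate 3, and RPL31 also without control replicate 1, with DESeq2 and with limma-voom. RPL10, RPS3 and RPS29 were among those called without control replicate 3, RPL37 without shSTN1 replicate 1 or control replicate 2, RPL21 without control replicate 2 and RPS24 without control replicate 1. Same-numbered libraries did not deviate together (correlations -0.046, 0.087 and -0.053), and the main fit did not pair them. With 3 libraries a group, these values cannot show whether same-numbered cultures were handled together. A fit with the replicate block gave 15 members higher and 46 lower, with a median of -0.23. Few reads limit RPL3L, at under 3 CPM in every library, and the 3 members under the filter were not tested.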
